A study of Mus musculus with 8 samples.

Results

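Chondrocytes without Ezh2, which lack a writer of H3K27me3, were compared with chondrocytes without Utx, which lack an eraser of the same mark, through 1 list of ChIP-seq peaks each. Of the 8 libraries of the study, 4 entered the comparison: 1 immunoprecipitated (ChIP) library and 1 input library from the genotype labelled Ezh2-cKO, and the same pair from Utx-cKO. Their lists hold 83144 of the 138214 peaks in all 4 lists, 33739 in Ezh2-cKO and 49405 in Utx-cKO. The libraries were chosen because the file headers give them nearly equal depth. The ChIP libraries had 34786292 fragments left after duplicate removal in Ezh2-cKO and 34359111 in Utx-cKO, a ratio of 1.01, and the inputs held 24041619 and 23983492, a ratio of 1.00.

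The cells are labelled as mouse chondrocytes of cartilage, grown in DMEM with serum, and all ChIP libraries as immunoprecipitated with an antibody to H3K27me3. The study asked how this mark differs between wild-type cells and cells in which Ezh2, Utx or Jmjd3 was deleted. In cKO, the labels' word for the 3 deleted genotypes, the Cre driver, the age and sex of the animals and any other allele are not given. Each genotype has 1 library of each kind, so no difference could be set against a spread between replicates and none was tested. Shares are given with 95% Wilson intervals, which reflect counting error alone. Titles of the libraries start with 190327 for Ezh2-cKO and 190117 for Utx-cKO, so that prefix and genotype cannot be told apart.

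Trimethylation of lysine 27 of histone H3 is written by Polycomb repressive complex 2, in which Ezh2 or its relative Ezh1 is the catalytic subunit beside Eed and Suz12. Utx, encoded by the X-linked gene Kdm6a, and Jmjd3, encoded by Kdm6b, are demethylases that remove it. In differentiated cells the mark is best known for covering silent regulators of other lineages, such as homeobox genes, often in domains much longer than a promoter. In skeletal progenitor cells Ezh2 is known to hold back genes of bone formation.

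Both lists also contain many genes that every cell expresses. Of 84 genes of cytosolic ribosomal proteins, 82 had a peak in Ezh2-cKO and 81 in Utx-cKO, and of 30 housekeeping genes 29 had one in each list. Of 26 genes of cartilage matrix and its regulators, the defining genes of the labelled cell type, 24 had a peak in each list. A peak is thus not taken to mean repression, and which histone mark the peaks show was not tested. A gene is called marked where a peak came within 2 kb of its start or its end, and marked in 1 list only where the other list also had no peak within 5 kb of the ends.

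Promoters of the genes that stand for each outcome are shown here because peaks of 1 list, or for Runx2 of both lists, lie on them. Each is the RefSeq promoter of GRCm38.p6 from 250 bases before to 50 after the gene's start, 5′ to 3′ on the gene's strand, with every CG in capitals, since Polycomb marks in mammals often lie on CG-rich promoters. CG reads the same on both strands, and 94.8% of the 17492 promoters in the table hold at least 1, with a median of 13. Tlx1, a homeobox gene needed for the spleen, was the gene of highest fold enrichment marked in Utx-cKO only whose peak lay on a promoter in the table, and 5730507C01Rik was its counterpart in Ezh2-cKO. Nkx2-4, a homeobox gene, and H2-T22, a class I gene of the major histocompatibility complex, are family members marked in Utx-cKO only. Nkx2-4 and H2-T22 were also marked in wild type and Jmjd3-cKO. Runx2, the master regulator of bone formation, was marked in both Ezh2-cKO and Utx-cKO.
Tlx1, chr19:45150465-45150764, plus strand, 16 CG: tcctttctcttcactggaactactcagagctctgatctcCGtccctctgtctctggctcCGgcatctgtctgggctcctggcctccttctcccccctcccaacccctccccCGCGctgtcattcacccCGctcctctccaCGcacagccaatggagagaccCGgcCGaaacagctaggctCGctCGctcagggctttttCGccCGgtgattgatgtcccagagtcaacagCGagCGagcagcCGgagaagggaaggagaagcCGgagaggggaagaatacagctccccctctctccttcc
5730507C01Rik, chr12:18514260-18514559, plus strand, 30 CG: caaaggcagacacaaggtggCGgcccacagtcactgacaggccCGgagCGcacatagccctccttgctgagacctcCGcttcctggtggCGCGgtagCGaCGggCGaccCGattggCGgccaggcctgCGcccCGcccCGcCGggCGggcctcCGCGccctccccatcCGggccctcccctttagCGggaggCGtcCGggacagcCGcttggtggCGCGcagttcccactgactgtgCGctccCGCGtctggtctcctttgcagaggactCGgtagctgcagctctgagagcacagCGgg
Nkx2-4, chr2:147085296-147085595, minus strand, 38 CG: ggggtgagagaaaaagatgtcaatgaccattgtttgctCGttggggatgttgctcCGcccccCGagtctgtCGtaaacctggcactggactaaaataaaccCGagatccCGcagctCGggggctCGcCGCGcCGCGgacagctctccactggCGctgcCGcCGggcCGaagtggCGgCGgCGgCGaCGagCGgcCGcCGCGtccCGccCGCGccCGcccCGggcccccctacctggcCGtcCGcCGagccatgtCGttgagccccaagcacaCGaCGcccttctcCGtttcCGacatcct
H2-T22, chr17:36042693-36042992, minus strand, 8 CG: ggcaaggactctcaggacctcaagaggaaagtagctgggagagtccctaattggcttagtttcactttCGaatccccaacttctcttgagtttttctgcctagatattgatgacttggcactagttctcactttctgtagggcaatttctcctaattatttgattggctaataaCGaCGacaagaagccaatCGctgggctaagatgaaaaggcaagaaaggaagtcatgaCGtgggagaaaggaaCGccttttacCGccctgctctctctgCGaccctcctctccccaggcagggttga
Runx2, chr17:44814578-44814877, minus strand, 2 CG: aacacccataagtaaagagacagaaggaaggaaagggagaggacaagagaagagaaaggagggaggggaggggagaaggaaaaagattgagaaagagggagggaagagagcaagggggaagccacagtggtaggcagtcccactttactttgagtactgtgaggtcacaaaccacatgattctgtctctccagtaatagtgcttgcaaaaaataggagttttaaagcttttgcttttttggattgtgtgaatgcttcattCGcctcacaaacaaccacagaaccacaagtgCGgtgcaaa

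The Utx-cKO list was the longer one in peaks and in covered sequence. It held 1.46 times as many peaks as the Ezh2-cKO list and covered 74.3 Mb against 48.1 Mb, a ratio of 1.55. The middle of the length distribution was alike, with a median of 945 bp in Utx-cKO and 962 bp in Ezh2-cKO, and the lists differed at its upper end. Peaks of 5 kb or more numbered 1885 in Utx-cKO and 869 in Ezh2-cKO, peaks of 10 kb or more 248 and 77, and peaks of 20 kb or more 19 and 5. The longest peak was 56001 bp in Utx-cKO and 30305 bp in Ezh2-cKO.

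Most of the Ezh2-cKO list lay within the Utx-cKO list, and much of the Utx-cKO list lay outside the Ezh2-cKO list. Of the Ezh2-cKO peaks, 4994 overlapped no Utx-cKO peak (14.8%, 14.4 to 15.2%). Of the Utx-cKO peaks, 21791 overlapped no Ezh2-cKO peak (44.1%, 43.7 to 44.5%). These peaks made up less of the covered sequence than of the count, with 5.56% of the Ezh2-cKO length and 21.2% of the Utx-cKO length, since their median was 418 bp in Ezh2-cKO and 552 bp in Utx-cKO against 1139 and 1578.5 bp for overlapped peaks. The size of the asymmetry went with the length of the lists. With only the 33739 peaks of lowest p-value kept per list, the shares were 23.8% in Ezh2-cKO and 27.3% in Utx-cKO.

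Peaks in 1 list only were weak within their own list. The authors' fold enrichment of a peak over the local input, which ranks peaks within a list and was not compared between lists, had a median of 2.59 in Ezh2-cKO-only peaks and 3.44 in overlapped Ezh2-cKO peaks. The corresponding medians in Utx-cKO were 2.73 and 4.18. In the lowest quartile of the Ezh2-cKO list by fold enrichment 31.5% of peaks were in that list only, in the next quartiles 24.3% and 3.28%, and in the highest quartile 0.0474%, which is 4 of 8435 peaks. In Utx-cKO the shares from the lowest to the highest quartile were 80.7%, 65.5%, 30.1% and 0.130%, the last being 16 of 12351 peaks. Nearly every strong peak of either genotype thus had a partner in the other. Wild-type peaks overlapped 839 of the Ezh2-cKO-only peaks (16.8%) and 2446 of the Utx-cKO-only peaks (11.2%), and 3771 (75.5%) and 17795 (81.7%) overlapped neither a wild-type nor a Jmjd3-cKO peak.

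Peaks in 1 list only lay away from gene starts. By the position of its centre, a peak within 2 kb of a RefSeq gene start was in 1 list only in 1.37% of cases in Ezh2-cKO and 7.12% in Utx-cKO. At the other gene ends, including starts without an entry in the promoter table, the shares were 7.78% and 33.3%. Inside genes they were 23.9% and 58.4%, and outside protein-coding genes 23.3% and 57.0%. The Utx-cKO-only peaks were therefore spread much as the Ezh2-cKO-only peaks were: 55.8% and 57.3% inside genes, 32.5% and 33.4% outside, 3.52% and 2.86% at gene starts. They lay at different distances from other peaks, as did the overlapped peaks of the 2 lists. A further peak of the same list lay within 3 kb of 39.2% of Utx-cKO-only peaks, with a median gap of 4.34 kb, and of 20.1% of Ezh2-cKO-only peaks, with a median gap of 10.4 kb. Among overlapped peaks the values were 34.3% and 5.69 kb in Utx-cKO and 23.9% and 8.66 kb in Ezh2-cKO.

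**Figure D1:**
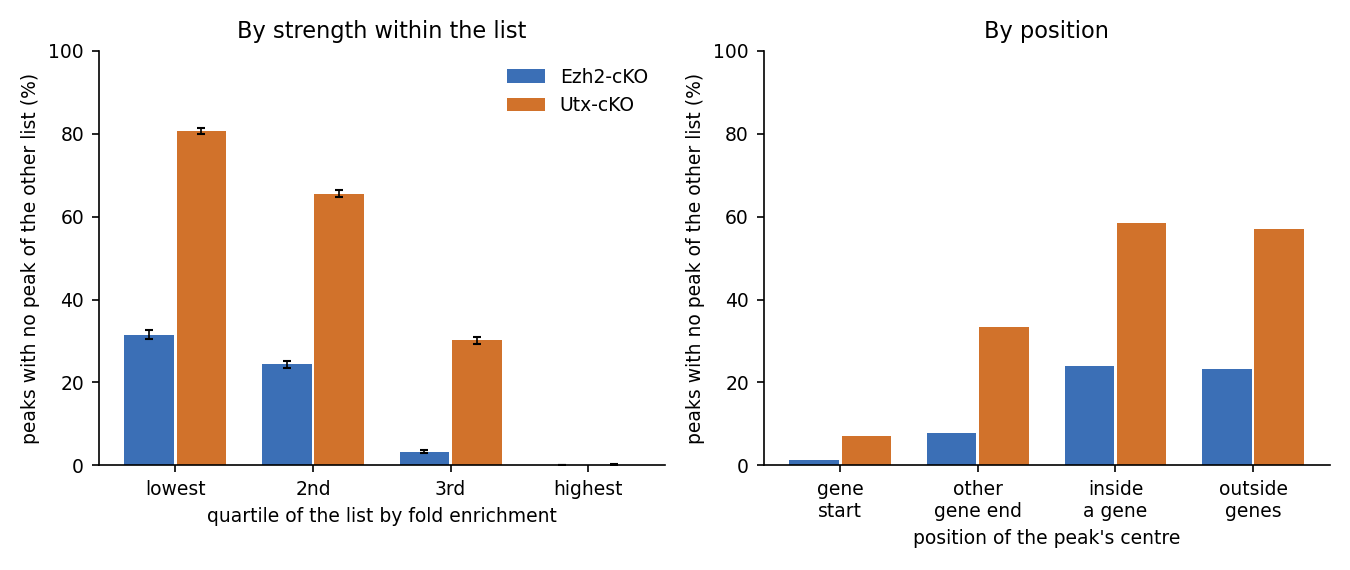
Share of peaks that overlap no peak of the other list, in percent, for Ezh2-cKO (blue) and Utx-cKO (orange); at left by quartile of each list in fold enrichment, with 95% Wilson intervals as error bars, at right by the position of the peak's centre. In both lists the share drops to under 1% in the strongest quartile and is lowest at gene starts, 1.37% in Ezh2-cKO and 7.12% in Utx-cKO.

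The autosomes resembled each other and the X chromosome stood apart. Across the 19 autosomes the share of Ezh2-cKO peaks in that list only ran from 12.3% on chromosome 7 to 18.2% on chromosome 3, and that of Utx-cKO peaks from 38.9% on chromosome 13 to 47.4% on chromosome 12. On X, where Kdm6a lies, 49 of 605 Ezh2-cKO peaks (8.10%, 6.18 to 10.5%) and 113 of 664 Utx-cKO peaks (17.0%, 14.4 to 20.1%) were in 1 list only. The Utx-cKO list held 73.4 autosomal peaks for each X peak and the Ezh2-cKO list 54.8. On Y the Utx-cKO list had 4 peaks and the Ezh2-cKO list none. The labels do not give the sex of the animals, and its part in the X values was not tested.

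The strongest peaks in 1 list only were mostly distant from genes. In Ezh2-cKO the highest fold enrichment was 7.44, at a 334 bp peak on X (75733533 to 75733866), 51.8 kb from Pls3, which encodes the actin-bundling protein plastin 3. Peaks with fold enrichment 6.11, 4.51 and 4.36 followed it towards Pls3, at 41.0, 36.2 and 26.5 kb, so that 4 of the 12 strongest peaks of that class lay in 1 stretch of sequence. Rapgef2, an activator of Rap GTPases, was the gene nearest to an Ezh2-cKO-only peak of 6.61, at 95.1 kb, and Gon4l, a transcriptional regulator, had one of 5.62 at its start. In Utx-cKO the highest value was 13.4, at a 245 bp peak (chromosome 6, 47753201 to 47753445), 14.9 kb from the predicted gene Gm40363. That peak was also in the wild-type and Jmjd3-cKO lists, so it was the Ezh2-cKO list that lacked it. The next values were 7.66 near Gm7247 and 6.72 at the start of Srp54b, a signal recognition particle gene with near-identical neighbouring copies, where placement of reads among copies was not tested.

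Where 1 peak of each list overlapped the other and no further peak, the pair could be compared in width. There were 26119 such pairs, with a median width of 1505 bp in Utx-cKO and 1116 bp in Ezh2-cKO. The median ratio was 1.18, or 0.24 on the log2 scale (0.24 to 0.25, the 95% interval of the median over pairs), and the Utx-cKO peak was the wider in 73.0% of pairs. It was at least 2 times as wide in 4361 pairs, and the Ezh2-cKO peak in 804. Restricting the pairs to fold enrichment of 4 or more in both lists left 11422 with a median of 0.16. With the strongest 33739 peaks of each list the median was 0.24. Dropping weak peaks left the kept ones as wide as they were called. This value therefore cannot show whether the width difference depends on list length.

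By position, the width ratio was smallest at gene starts. Its median on the log2 scale was 0.17 in 9669 pairs at gene starts and 0.25 in 3347 pairs at other gene ends. It was 0.38 in 7887 pairs inside genes and 0.30 in 5209 pairs outside genes. In bp the order was another one. The median difference was 157 bp outside genes, 224 bp at gene starts, 245 bp at other gene ends and 244 bp inside genes. Pairs at gene starts were also the widest, with a median of 1888 bp in Ezh2-cKO against 757 bp inside genes. Ordered by size, the pairs had a median log2 ratio of 0.17 in the lowest decile and 0.44 in each of the next 2 deciles. Lower values followed, down to 0.15 in the highest decile. The median difference was 41 bp in the lowest decile and 484 bp in the highest. On X the median log2 ratio was 0.11 over 543 pairs, against 0.25 over 25569 autosomal pairs.

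**Figure D2:**
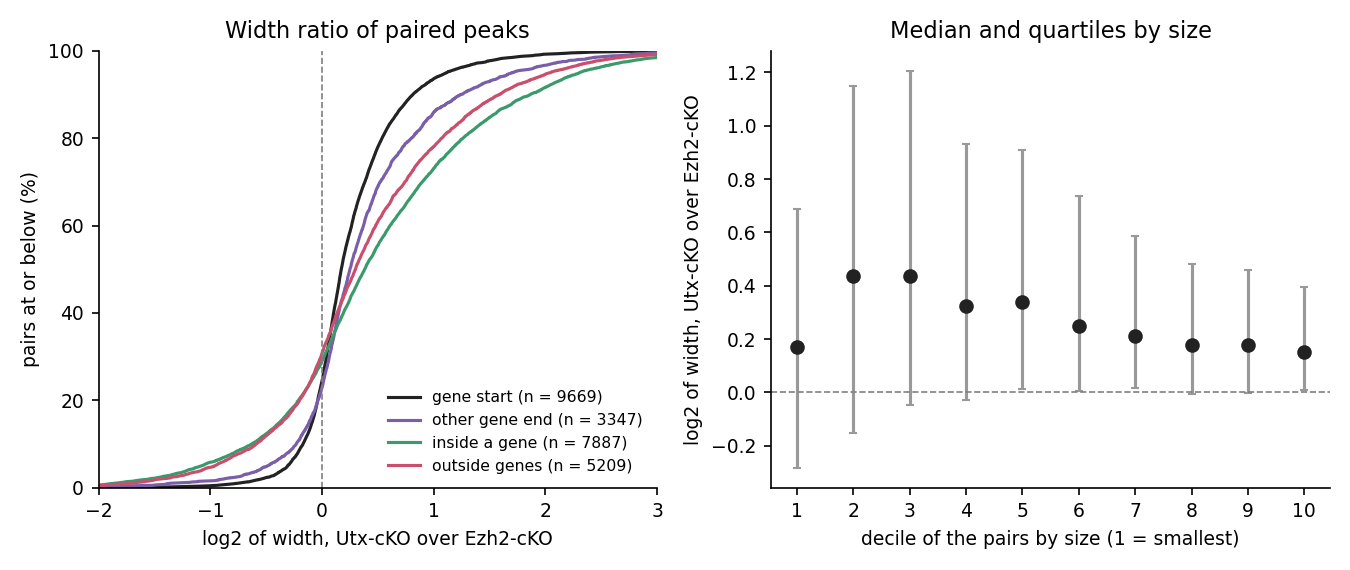
Width of paired peaks, as the log2 of Utx-cKO over Ezh2-cKO; at left the cumulative share of pairs in percent by the position of the pair (a few pairs lie beyond the axis), at right the median (points) and quartiles (bars) in deciles of the pairs by size. The curves cross 0 at similar heights and fan out above it, gene starts having the smallest median (0.17) and pairs inside genes the largest (0.38).

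At gene starts the added width lay mainly downstream. In 8091 pairs both peaks covered a gene start of known strand. The Utx-cKO peak reached a median of 119 bp further into the gene and 58 bp further upstream. Its downstream edge was the further out in 72.2% of pairs and its upstream edge in 68.8%. Edges more than 500 bp further out made up 20.2% of downstream edges and 8.37% of upstream edges. The median reach into the gene was 1281 bp in Ezh2-cKO and 1498 bp in Utx-cKO, and upstream of the start it was 547 and 629 bp.

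**Figure D3:**
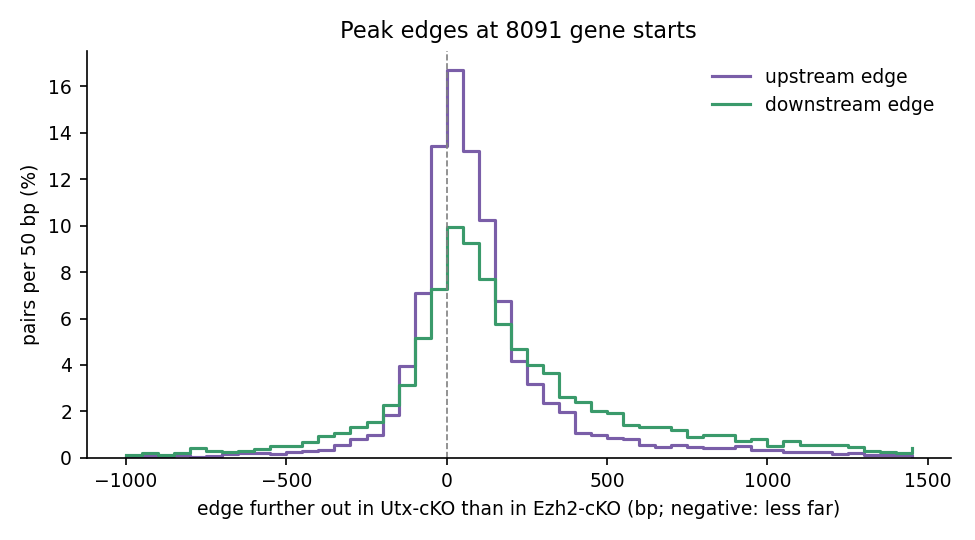
Distance by which the edge of the Utx-cKO peak lay further out than that of the Ezh2-cKO peak, in bp, at 8091 gene starts, as percent of pairs per 50 bp for the upstream and the downstream edge; the outermost distances are not drawn. Both distributions peak just above 0, and the downstream edge has the longer right tail, with 20.2% of pairs beyond 500 bp against 8.37% upstream.

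Named pairs show how large such differences could be where both peaks had fold enrichment of 4 or more. At the start of Pnp, which encodes purine nucleoside phosphorylase, the Ezh2-cKO peak was 279 bp wide and the Utx-cKO peak 2435 bp, on chromosome 14 from 50943807 to 50946241. At an end of Smug1, a DNA repair glycosylase gene, the widths were 542 and 4348 bp, and inside Rhbdf2, which encodes an inactive rhomboid protein, 666 and 3733 bp. Uhrf1, a partner of the maintenance DNA methyltransferase, had 2009 bp in Ezh2-cKO and 9923 bp in Utx-cKO, and Usp10, a deubiquitinase gene, 1528 and 6783 bp. The other 3 of the 8 largest ratios lay at the zinc transporter gene Slc39a3, near the histone gene H2bc18 and far from the crystallin gene Cryba4. In the opposite direction the extremes were smaller. An end of Cox17, a copper chaperone gene, had 2925 bp in Ezh2-cKO and 838 bp in Utx-cKO, a ratio of 3.49, and a peak inside Kmt2c, which encodes a histone H3 lysine 4 methyltransferase, 1532 and 450 bp. The rest of those 8 ratios ran from 2.57 near Zfp7 to 3.12 at 2310009B15Rik, with Sema4f, Tmem167b, Gm51464 and Olfr1324 between them.

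Peaks that were separate in 1 list were often joined in the other. There were 1121 Utx-cKO peaks that each spanned 2 or more Ezh2-cKO peaks, 2414 of them in all, and 134 that spanned 3 or more. The converse, an Ezh2-cKO peak over several Utx-cKO peaks, occurred 166 times, with 334 smaller peaks, and in 20 groups several peaks of each list overlapped in a chain. Nuclear factor I genes, which encode transcription factors of development, had several of the longest: a 56001 bp peak of Utx-cKO (chromosome 8, 84698318 to 84754318) took in 7 Ezh2-cKO peaks and ends of Trmt1, Lyl1 and Nfix. A further one of 37904 bp over Nfix took in 3, and one of 31867 bp inside Nfic took in 8. Others were a peak of 45573 bp on chromosome 10 around Midn and Cirbp, over 6 Ezh2-cKO peaks, one of 33911 bp over Hoxc8, Hoxc9 and Hoxc10, over 2, and one of 28901 bp at Bcl9l, a cofactor gene of Wnt signalling, over 4. The smaller peaks already filled most of the larger one in these cases: 32916 bp of the Hoxc peak and 46112 bp of the longest were covered in Ezh2-cKO, while 20634 bp were at Nfic.

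The longest Ezh2-cKO peaks of this kind lay at Hox and matrix genes. One of 27658 bp (chromosome 6, 52219616 to 52247273) over Hoxa9, Hoxa10 and Hoxa11 took in 2 Utx-cKO peaks that together held 26830 bp. One of 17457 bp over Hoxc5 and Hoxc6 took in 2 with 16836 bp. The others lay inside Lrba (12193 bp), at Hapln1, which encodes the link protein of cartilage matrix (10399 bp), at Col1a2, a chain of type I collagen (10217 bp), and over Rpl24 and Zbtb11 (10130 bp).

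At gene ends the lists shared most of their genes. Of 21887 protein-coding genes, 14118 were marked in Ezh2-cKO (64.5% of all genes) and 14820 in Utx-cKO (67.7%), and 13980 were marked in both. Marked in Utx-cKO only were 558 genes, or 2.55% of all genes, at 528 distinct peaks. Marked in Ezh2-cKO only were 77 genes, or 0.352%, at 75 peaks. Among genes with no Ezh2-cKO peak within 5 kb, 8% were marked in Utx-cKO, and among genes with no Utx-cKO peak within 5 kb, 1.23% were marked in Ezh2-cKO. With the strongest 33739 peaks of each list, 14372 genes were marked in Utx-cKO (65.7%), 341 (1.56%) of them in that list only, and 180 in Ezh2-cKO only.

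The peaks behind these genes were weak and small. Their median fold enrichment was 2.88 for Utx-cKO only (2.16 to 6.72) and 2.66 for Ezh2-cKO only (2.23 to 4.60), the 41.2 and 30.4 percentile of their own lists, and their median width was 519 and 412 bp. Fold enrichment reached 4 at 12 genes marked in Utx-cKO only, among them Gm2436 and Srp54b at 1 shared peak, and at 2 genes marked in Ezh2-cKO only. The peak lay at the start in 230 of the 558 and 37 of the 77 genes, at the 3' end in 120 and 13, at both ends in 39 and 4, and at an end other than that start in 31 and 5. The strand was not given for 138 and 18 genes. The other lists divided both sets. Of the 558 genes, 100 (17.9%) were also marked in wild type, 146 (26.2%) in Jmjd3-cKO and 367 (65.8%) in neither. Of the 77 genes, 15 (19.5%) were marked in wild type, 15 in Jmjd3-cKO and 54 (70.1%) in neither.

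The genes of highest fold enrichment marked in Utx-cKO only, with 1 gene taken per peak, were a mixed group. Gm2436 came first with 6.72, from the same peak as Srp54b. Next were Pik3c3, the lipid kinase of autophagy (5.15), 1700016K19Rik (4.95), Cfap54, a cilium gene (4.59), and Tlx1 (4.49), whose peak of 934 bp (chromosome 19, 45150474 to 45151407) covered the start shown above. Ttc9b, Sowahd, Adam2, a sperm surface gene, D630023F18Rik, Unc79, a subunit gene of a sodium leak channel, and Tekt5, a gene of the sperm tail, had values from 4.23 down to 4.02, and the cytokine gene Il13 had 3.96. Of these 12 genes, 1700016K19Rik, Unc79, Tekt5 and Il13 were marked in both wild type and Jmjd3-cKO, and Gm2436, Cfap54 and Adam2 in neither.

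The genes marked in Ezh2-cKO only were also mixed. The highest value, 4.60, was that of 5730507C01Rik, whose peak of 742 bp (chromosome 12, 18514512 to 18515253) was also present in wild type and Jmjd3-cKO. Serpinb1b, a protease inhibitor gene, followed with 4.32, and Tomm20l, a gene related to a mitochondrial import receptor, with 3.53. H2-Q2, a class I gene of the major histocompatibility complex, had 3.52, Tmsb15b1, a thymosin gene, 3.43, and Ifi211, an interferon-inducible gene, 3.20. Xirp2, a muscle actin-binding gene, Spx, a peptide hormone gene, Jchain, the joining chain of antibodies, Olr1, a scavenger receptor gene, Ets1, a transcription factor gene, and Slc38a11, an amino acid transporter gene, lay between 3.07 and 3.04. Of the 12, 5730507C01Rik, Serpinb1b, H2-Q2, Tmsb15b1 and Xirp2 were marked in both wild type and Jmjd3-cKO as well.

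Developmental transcription factors were a small part of the genes marked in Utx-cKO only, 24 of the 558, but many of their members that could differ did. In 12 families of them together, 165 of 234 genes were marked in Ezh2-cKO and 191 in Utx-cKO. Of the 61 members with no Ezh2-cKO peak within 5 kb, 24 were marked in Utx-cKO (39.3%), beside 8% over all such genes and 11.4% over such genes in none of the 46 families examined. The share was 29.4% in Tmem genes, which are named for a membrane segment and have no shared function. No member was marked in Ezh2-cKO only, among 32 with no Utx-cKO peak within 5 kb. For all genes without such a peak the share was 1.23%, so few members could have been. Like the lists as a whole, the families depended on list length: with the strongest 33739 peaks of each list they had 176 marked members in Utx-cKO, 14 in that list only and 3 in Ezh2-cKO only.

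Nkx homeobox genes, regulators of heart, thyroid and nervous system, had 9 of 14 members marked in Ezh2-cKO and 13 in Utx-cKO. The 4 that differed were Nkx2-4 (fold enrichment 3.71 in Utx-cKO, 726 bp), Nkx6-2 (3.16, 1331 bp), Nkx2-5, the regulator of heart formation (3.15, 598 bp), and Nkx1-1 (3.12, 277 bp). The Nkx2-4 peak, on chromosome 2 from 147084724 to 147085449, covered the gene start in the sequence above, and was in the wild-type and Jmjd3-cKO lists too. Pax genes, regulators of organ identity, went from 2 of 9 in Ezh2-cKO to 5 in Utx-cKO, with Pax7 (2.72) and Pax3 (2.69), both regulators of muscle progenitors, and Pax6, the regulator of eye development (2.57). These 3 genes were not without Ezh2-cKO peaks: 283, 246 and 705 bp of their bodies were covered there, away from the ends. Fox genes had 33 of 44 and 37 of 44, the 4 that differed being Foxi2, Foxb2, Foxn4 and Foxd3, and the last 3 of these were marked in wild type and in Jmjd3-cKO. With the strongest 33739 peaks of each list, which leaves the Ezh2-cKO counts as they are, Nkx genes still had 13 in Utx-cKO and Fox genes had 35, but Pax genes had 2 and no longer differed. All genes together were marked at 64.5% in Ezh2-cKO and 67.7% in Utx-cKO, or 65.7% with lists of equal length.

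Neural and muscle bHLH genes had 24 of 38 in Ezh2-cKO and 28 in Utx-cKO, through Neurod1 and Neurod2, regulators of neurons, Myf5, a regulator of muscle, and Olig2, a regulator of oligodendrocytes, with fold enrichment from 3.10 to 2.59. T-box genes had 10 of 16 and 13, through Eomes and T, regulators of early mesoderm, and Tbx5, a regulator of heart and forelimb. Eomes had an Ezh2-cKO peak between 2 and 5 kb of an end. Nuclear receptors, outside the 12 families, had 33 of 44 and 36, the 3 being Nr1i2, Nr2e1 and the retinoic acid receptor gene Rarb. With lists of equal length the Utx-cKO counts were 12 for T-box genes, 34 for nuclear receptors and 24 for the bHLH genes, so that the difference in bHLH genes was lost. The shares of all genes were 64.5% in Ezh2-cKO and 67.7% in Utx-cKO, or 65.7% with lists of equal length.

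Hox genes, which set position along the body axis, were mostly marked in both lists. Of 39 genes, 31 were marked in Ezh2-cKO (79.5%) and 33 in Utx-cKO (84.6%), and 29 in both. The shares of all genes were 64.5% and 67.7%. In the Hoxa cluster all 11 genes and in Hoxc all 9 were marked in each list, with 46.0 and 49.8 kb covered in Hoxa and 57.3 and 62.0 kb in Hoxc, Ezh2-cKO first. Hoxd had 17.1 kb covered in Ezh2-cKO and 25.6 kb in Utx-cKO, and Hoxb only 4.16 and 6.10 kb of its 178 kb. The genes that differed lay in these 2 thinly covered clusters. Hoxb4 (3.51), Hoxd13 (3.32) and Hoxb13 (3.22) were marked in Utx-cKO only and Hoxb5 in Utx-cKO with an Ezh2-cKO peak within 5 kb. Hoxd4 (3.52) and Hoxb6 (2.60) were marked in Ezh2-cKO with a Utx-cKO peak within 5 kb.

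Secreted signals and immune surface genes also had more marked members in the full Utx-cKO list, as did all genes together (64.5% in Ezh2-cKO and 67.7% in Utx-cKO). Wnt genes had 14 of 19 marked in Ezh2-cKO and 17 in Utx-cKO, through Wnt3a (2.93) and through Wnt3 and Wnt9b, which share 1 peak of 426 bp (2.74). Bmp, Gdf and inhibin genes, ligands of the TGF-beta family, had 25 of 34 and 28, through Bmp8a, Lefty2 and Inhbc. Interleukins and their receptors had 38 of 83 and 49, the strongest of the 12 marked in Utx-cKO and not within 2 kb in Ezh2-cKO being Il13 (3.96), Il12b (3.75), Il34 (3.06) and Il12a (2.98). Il1rn, which encodes the interleukin-1 receptor antagonist, was the 1 member marked in Ezh2-cKO only (2.47). Chemokines had 12 of 39 and 15, through Cxcl17, Cxcl13 and Ccl1. CD antigens had 39 of 100 and 43, with Cd37 (3.10), Cd59b (3.03), Cd5 (2.96) and Cd40 (2.75) leading in Utx-cKO and Cd7 (2.39) in Ezh2-cKO. Among the genes named here, Lefty2, Il34, Cxcl17 and Cd5 had an Ezh2-cKO peak between 2 and 5 kb of an end. With lists of equal length, Bmp, Gdf and inhibin genes had 25 in each list and CD antigens 39 in each, while Wnt genes had 15 in Utx-cKO, chemokines 13 and interleukins and their receptors 43.

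Surface receptors and channels of excitable cells differed in the same direction, as did all genes together. Over all genes the share was 64.5% in Ezh2-cKO and 67.7% in Utx-cKO, and 65.7% in Utx-cKO with lists of equal length. Orphan G protein-coupled receptors had 39 of 74 in Ezh2-cKO and 51 in Utx-cKO, and 9 were marked in Utx-cKO only. The strongest of the 12 that differed were Gpr146 (5.20), Gpr84 (4.47), Gpr12 (3.37) and Gpr179 (3.0), and the Gpr84 peak was 14906 bp long. Of these, Gpr146, Gpr84 and Gpr179 had an Ezh2-cKO peak between 2 and 5 kb of an end. Amine and peptide receptors had 47 of 75 and 51. Here Chrnd (6.06) and Chrna1 (3.13), subunits of the acetylcholine receptor of muscle, Oprd1 (2.93) and Hrh2 (2.89) led in Utx-cKO, while Chrna3, Oprk1 and Htr2c were marked in Ezh2-cKO only. Potassium channels had 65 of 92 and 71, with Kcnj6 (3.59), Kcnq1 (3.50) and Kcnj9 (3.30) among those marked in Utx-cKO and not within 2 kb in Ezh2-cKO. Sodium and calcium channels had 25 of 40 and 28, through Cacna2d4, Scn1a and Scn3a. Glutamate, GABA and glycine receptors had 28 of 50 and 33, with Grik1 (3.25), Grin2a (3.03), Grm7 (2.83) and Gabrd (2.79) in Utx-cKO and Grin2b (2.55) in Ezh2-cKO only. Chrnd, Chrna1, Kcnj9 and Grin2a also had an Ezh2-cKO peak between 2 and 5 kb of an end. With lists of equal length, orphan receptors had 44 in Utx-cKO, amine and peptide receptors 48, potassium channels 67, sodium and calcium channels 27, and the glutamate, GABA and glycine receptors 30.

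Adhesion, epithelial, transporter and enzyme families had more marked members in the full Utx-cKO list as well. Over all genes the share was 64.5% in Ezh2-cKO and 67.7% in Utx-cKO, and 65.7% in Utx-cKO with lists of equal length. The full-list shares of solute carriers, 70.1% and 74.1%, and of cytochrome P450 genes, 24.7% and 28.0%, rose by about as much. Clustered protocadherins, which give neurons a surface identity, had 20 of 57 in Ezh2-cKO and 30 in Utx-cKO, but the 9 genes marked in Utx-cKO only rest on 2 peaks, since neighbours share their ends. Pcdhga2, Pcdhgb1, Pcdhgb2 and Pcdhga5 led, all with fold enrichment 3.82. Claudins and connexins, of cell junctions, had 18 of 43 and 25, with Cldn11 (3.97), Gjb1 (3.12) and Cldn24 (2.99) among those that differed. Keratins had 8 of 105 and 13, led in Utx-cKO by Krt8 (3.30), Krt79 (3.04) and Krt80 (2.77) and in Ezh2-cKO by the hair keratin-associated gene Krtap5-1 (2.88). Solute carriers, the largest of these families, had 265 of 378 and 280, with Slc35d3 (4.37), Slc36a2 (3.49), Slc8a2 (3.35) and Slc16a13 (3.18) leading in Utx-cKO. Cytochrome P450 genes had 23 of 93 and 26, through Cyp26c1 and Cyp26b1, which break down retinoic acid, and Cyp17a1, of steroid synthesis. Among the genes named here, Pcdhgb2, Cldn11, Cldn24, Krt80 and Cyp26b1 had an Ezh2-cKO peak between 2 and 5 kb of an end. With lists of equal length, keratins had 8 in each list, and the Utx-cKO counts were 28 for protocadherins, 21 for claudins and connexins, 270 for solute carriers and 26 for cytochrome P450 genes.

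Of the 46 families, 7 had equal counts and 2 had more marked members in Ezh2-cKO. Serpins were marked at 13 of 63 genes in Ezh2-cKO and 11 in Utx-cKO, the 2 that differed being Serpinb1b (4.32) and Serpinb5 (3.01). Ribosomal protein genes differed by Rpl39l, marked in Ezh2-cKO only (2.72). Replication histone genes had 62 of 67 in each list, olfactory receptors 8 of 1106 in each and vomeronasal receptors 3 of 353 in each. Genes of the major histocompatibility complex had 13 of 38 and 15, with H2-Ab1 (3.74), H2-T22 (3.30), H2-T23 (3.19) and H2-T24 (2.91) in Utx-cKO and H2-Q2 (3.52) and H2-M5 (2.54) in Ezh2-cKO. Of these, H2-T22, H2-T23 and H2-Q2 were also marked in wild type and Jmjd3-cKO, H2-T24 in wild type and H2-Ab1 in Jmjd3-cKO. Such near-identical genes can share reads, and how the reads were placed was not tested. Zfp zinc finger genes had 338 of 394 (85.8%) and 341 (86.5%), a smaller rise than over all genes (64.5% and 67.7%). Those that differed were Zfp787 (11.2), Zfp541 (5.91), Zfp994 (3.29) and Zfp750 (2.59) in Utx-cKO and Zfp109 (5.74) in Ezh2-cKO. H2-M5, Zfp787, Zfp541 and Zfp109 had a peak of the other list between 2 and 5 kb of an end. With lists of equal length the Utx-cKO count was 10 for serpins and 5 for olfactory receptors. It was 15 for genes of the major histocompatibility complex and 339 for Zfp genes.

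**Figure D4:**
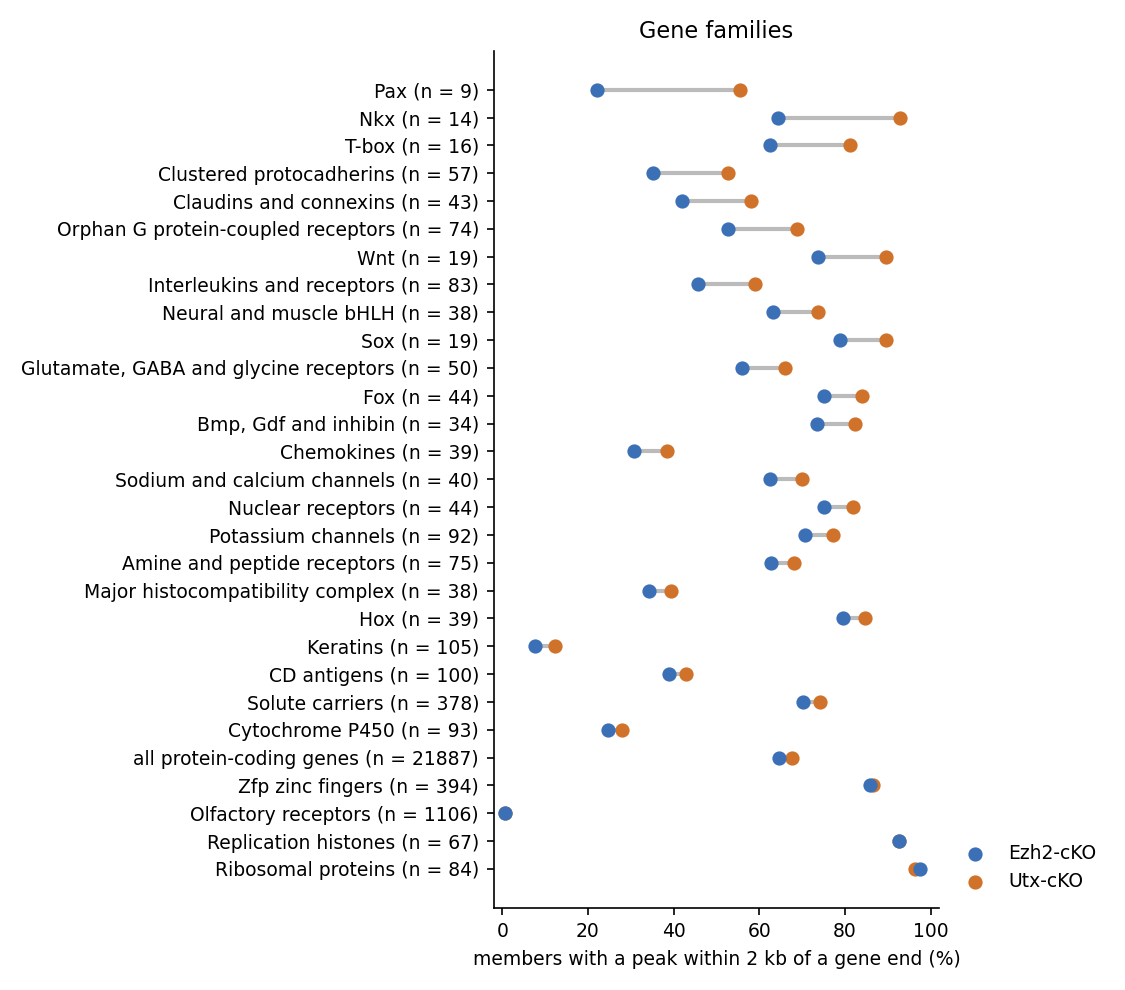
Members of gene families with a peak within 2 kb of a gene end, in percent, for Ezh2-cKO (blue) and Utx-cKO (orange), with the number of members after each name and the families in order of the difference. Most families lie further right in Utx-cKO, Pax (2 and 5 of 9) and Nkx (9 and 13 of 14) by the most, while replication histones and olfactory receptors have equal counts and ribosomal protein genes differ by 1. The counts are those of the full lists; with lists of equal length Pax has 2 in each.

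Cartilage genes did not differ in which genes were marked. All 24 marked genes were the same in the lists, with a median log2 ratio of covered length, Utx-cKO over Ezh2-cKO and counted over the gene and 2 kb to each side, of 0.07. The median over all 13980 genes marked in both lists was 0.35, and 80.2% of them were covered over a longer stretch in Utx-cKO. Equal marking was not particular to cartilage genes. It was also found in PRC2 and demethylase genes (median ratio 0.02), housekeeping genes (0.17) and cell cycle inhibitors (0.55). Sox9, the master regulator of chondrocyte fate, had 7861 bp covered in Ezh2-cKO and 8177 bp in Utx-cKO, and Col2a1, the main collagen of cartilage, 27337 and 29955 bp. Other cartilage genes, chosen after their values were seen, went further in both directions. Comp, a matrix protein gene, had 3837 bp in Ezh2-cKO and 10006 bp in Utx-cKO, and Gdf5, a joint ligand gene, 2379 and 4633 bp. In contrast Col11a1, a chain of type XI collagen, had 18569 and 11366 bp, and Cnmd, which encodes chondromodulin, 8282 and 4964 bp.

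Genes of hypertrophic chondrocytes and bone were marked at 14 of 24 in Ezh2-cKO and 17 in Utx-cKO, beside 64.5% and 67.7% of all genes. Among those that differed were Pth1r, the receptor of parathyroid hormone-related peptide (3.56, 510 bp), and Mepe, a bone matrix gene (3.48, 1448 bp). Mepe had no Ezh2-cKO peak within 5 kb, and Pth1r had one between 2 and 5 kb of an end. With lists of equal length 16 of the 24 were marked in Utx-cKO. In the full lists the 14 genes marked in both were all covered over a longer stretch in Utx-cKO, with a median log2 ratio of 0.46. Of all genes marked in both lists 80.2% were covered over a longer stretch there, with a median of 0.35. Runx2 had 17810 bp in Ezh2-cKO and 22785 bp in Utx-cKO, and Ihh, the Hedgehog ligand of the growth plate, 2328 and 3094 bp. At Runx2 the order was the opposite for the strongest single peak, on the start shown above, which was 3450 bp in Ezh2-cKO and 2539 bp in Utx-cKO.

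Genes of the pathway that writes and erases the mark were marked alike. Among PRC2 subunit and H3K27 demethylase genes, 13 of 14 were marked in each list, all but Uty. The deleted genes themselves were among them: Ezh2 had 2797 bp covered in Ezh2-cKO and 2757 bp in Utx-cKO, and Kdm6a had 7110 and 6349 bp. Whether exons were missing cannot be read from called peaks, so the genotype labels remain unchecked. Kdm6b, encoding Jmjd3, had 20396 and 25466 bp, and 1 Utx-cKO peak of 28115 bp spanned the gene and its surroundings. The brakes on cell division were marked at 9 of 9 genes in each list, Cdkn2a over 2125 bp in Ezh2-cKO and 3101 bp in Utx-cKO. Hedgehog pathway genes had 14 of 16 and 15, the difference being Disp2 (3.67). Wnt antagonists and enhancers had 13 of 16 and 15, through Dkk1 (4.03) and Rspo4 (2.71). With lists of equal length the Utx-cKO count was 15 for Hedgehog pathway genes and 14 for Wnt antagonists and enhancers. The shares of all genes were 64.5% in Ezh2-cKO and 67.7% in Utx-cKO, or 65.7% with lists of equal length. Disp2, Dkk1 and Rspo4 each had an Ezh2-cKO peak between 2 and 5 kb of an end.

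In the full peak lists, markers of other tissues were marked more often in Utx-cKO in each of the 5 gene lists examined. With lists of equal length this held in 4 of them. Over all genes the share was 64.5% in Ezh2-cKO and 67.7% in Utx-cKO, and 65.7% in Utx-cKO with lists of equal length. Skeletal muscle genes had 2 of 15 in Ezh2-cKO and 9 in Utx-cKO, where Myf5 (2.60), Pax3 and Pax7, regulators of muscle progenitors, Mymk (2.74) and Mymx (3.15), which fuse muscle cells, Des (2.94), of the muscle cytoskeleton, and Chrna1 (3.13) were added. Neuron genes had 8 of 16 and 12, through Nefm (3.11), a neurofilament gene, Chat (3.06), Th (3.0) and Gad2 (2.73), which make transmitters. Endothelium genes had 6 of 16 and 9, through Egfl7 (3.36), Sox18 (3.20) and Esam (2.90). Fat genes had 8 of 14 and 10, through Adipoq (3.46, 2921 bp) and Fabp4 (3.19, 1490 bp), and blood genes 11 of 20 and 13, through Csf1r (2.76) and Cd8a (2.53). Of the genes added in Utx-cKO, Mymx, Chrna1, Th, Egfl7, Esam and Csf1r had an Ezh2-cKO peak between 2 and 5 kb of an end. No member of these lists was marked in Ezh2-cKO and not in Utx-cKO, but of all 21887 genes only 138 were. With the strongest 33739 peaks of each list, muscle genes had 5 of 15 in Utx-cKO, neuron genes 10 of 16, endothelium genes 8 of 16 and fat genes 10 of 14, while blood genes had 11 of 20 in both, and 1 neuron gene and 1 endothelium gene were marked in Ezh2-cKO only. A different share of such cells in the libraries and a difference within chondrocytes cannot be told apart.

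**Figure D5:**
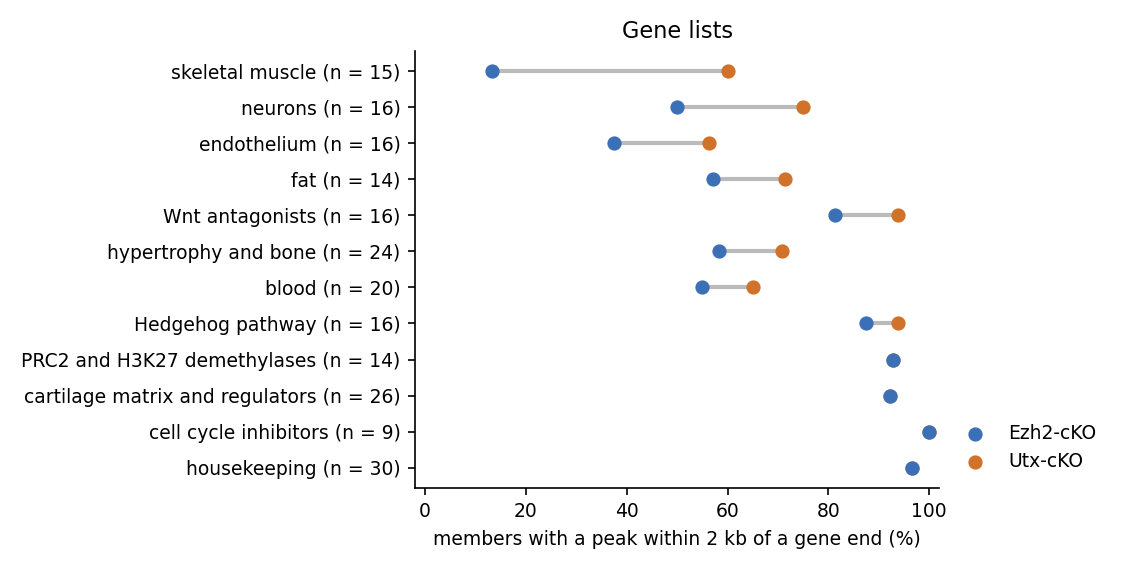
Members of 12 gene lists with a peak within 2 kb of a gene end, in percent, for Ezh2-cKO (blue) and Utx-cKO (orange; hidden where the points coincide), in order of the difference. Skeletal muscle is furthest apart, with 2 and 9 of 15 genes (2 and 5 with lists of equal length), and cartilage, PRC2, cell cycle inhibitors and housekeeping genes have the same count in both lists.

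The hairpins of microRNAs, examined after the other values were seen, gave pairs of relatives that differed in opposite directions. Of 963 hairpins, 289 had a peak within 2 kb in Ezh2-cKO and 383 in Utx-cKO, 55 of them in Utx-cKO only (5.71% of hairpins) and 11 in Ezh2-cKO only (1.14%). The mature RNAs below come from RefSeq, GRCm38.p6, and the capitals mark the seed, bases 2 to 8, which selects the targets. Mir10a, on chromosome 11 at 96317165 to 96317274 beside Hoxb4, was marked in Utx-cKO only (3.51), by the peak that marks Hoxb4. Mir10b, on chromosome 2 at 74726070 to 74726137 beside Hoxd4, was marked in Ezh2-cKO only (3.52), by the peak that marks Hoxd4, a peak that the wild-type and Jmjd3-cKO lists also had. Of the miR-30 family, Mir30a was marked in Utx-cKO only (3.04), and Mir30c-1 and Mir30e, which lie together on chromosome 4, in Ezh2-cKO only by 1 shared peak (2.51). Mir140, the cartilage microRNA, lay under a long peak in both.
mmu-miR-10a-5p, Utx-cKO only: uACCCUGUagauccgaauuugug
mmu-miR-10b-5p, Ezh2-cKO only: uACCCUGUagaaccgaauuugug
mmu-miR-30a-5p, Utx-cKO only: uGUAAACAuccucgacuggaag
mmu-miR-30c-5p, Ezh2-cKO only: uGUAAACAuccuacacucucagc
mmu-miR-30e-5p, Ezh2-cKO only: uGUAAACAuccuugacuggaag
mmu-miR-140-3p, both: uACCACAGgguagaaccacgg
The members of each family share their seed and differ only in other bases. The peak over Mir140 was 14588 bp in Ezh2-cKO, from 107543618 to 107558205 on chromosome 8, and 15092 bp in Utx-cKO. Mir499, a microRNA of muscle that lies in a myosin gene, had a peak in Utx-cKO only (2.56). Mir199a-2 and Mir214, which lie together on chromosome 1, shared a long peak in both lists.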

How the data were processed

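The libraries are ChIP-seq of mouse chondrocytes labelled H3K27me3, with 1 ChIP and 1 input library per genotype. The submitters' processing notes name Bowtie2, MACS2, ChIPseeker, HOMER 4.10, FastQC 0.11.5 and deepTools 2.4.1. The genome build is not given in the sources used here, nor is the Bowtie2 version. Per the file headers, each ChIP library was set against its own input in MACS 2.1.2, in broad and paired-end mode, at a q-value of 0.05 and a broad threshold of 0.05, with at most 1 duplicate fragment per position. The deposited lists hold, per peak, the length in bp, the pileup (a coverage signal), the fold enrichment (a ratio to the local input) and the −log10 of p and of q. Scaling was done by the authors within each library pair, so a peak can pass the threshold in 1 list and just miss it in the other. The smallest pileup was 12 in both lists, and the fragment size was 231 bp in Ezh2-cKO and 223 bp in Utx-cKO.

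Gene positions are those of RefSeq for GRCm38.p6 (21887 protein-coding genes on the numbered chromosomes, X and Y). The peaks marked 14118 genes in Ezh2-cKO and 14820 in Utx-cKO at these positions, against at most 5661 and 7367 when genes were moved by 20 kb, so coordinates are taken as that build. Starts and strands came from the promoter table, which has 17492 of the genes. A comparison of promoter CG content between classes of genes was void and is not reported, since the table held a promoter for only 75.3% of the genes marked in Utx-cKO only, 76.6% of those in Ezh2-cKO only and 79.7% of those marked in both. Exons and introns were not told apart.

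Overlap counted from 1 bp. The 46 families, 12 gene lists, the 2 kb and 5 kb windows and the members described were chosen with earlier results of these data known. The genes named are, by rule, the 12 of highest fold enrichment marked in 1 list only per direction (1 gene per peak), up to 4 per family with at least 5 such genes or a difference of 3 or more, list members that differed, the 8 largest width ratios and 6 longest joining peaks per direction, and Ezh2, Kdm6a, Kdm6b, Sox9, Col2a1, Runx2, Ihh and Cdkn2a. A few genes that this rule takes in are not reported here. Other genes named were chosen after their values were seen, as were the microRNAs. Alternatives were other thresholds, lists of equal length, merging, overlaps and windows. The steps were tested on simulated peaks. The software was pandas 2.3.3, scipy 1.17.1, numpy 2.4.6 and matplotlib 3.10.9 under Python 3.11.15.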

Additional observations from a re-analysis of the deposited data

How the results depend on the processing

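The directions held under the alternatives: a larger share in 1 list only in Utx-cKO, wider Utx-cKO peaks and more genes marked in Utx-cKO only. The sizes did not. The direction of the shares is largely fixed by list length. In the full lists 28745 Ezh2-cKO and 27614 Utx-cKO peaks were overlapped, so the longer list has the larger share in 1 list only. With equal numbers of peaks the shares can differ only because some peaks overlap several of the other list. That alternative therefore does not show more separate regions in Utx-cKO. For Ezh2-cKO peaks with no Utx-cKO peak and Utx-cKO peaks with no Ezh2-cKO peak, the shares were 8.50% and 30.4% at a q of 0.001 or less, 1.64% and 15.7% for peaks enriched 4 times or more, 23.8% and 27.3% with equal numbers of strongest peaks, 13.7% and 37.9% after merging peaks within 3 kb, and 17.8% and 46.0% with an overlap of 50% of the shorter peak. The median log2 width ratio was 0.20 at a q of 0.001 or less, 0.17 for peaks enriched 4 times or more, a cut that differs in scale between the lists, and 0.16 with an overlap of 50% of the longer peak. Genes marked in Utx-cKO only and Ezh2-cKO only numbered 341 and 180 with equal numbers of peaks, and 840 and 138 when the other list had to lack a peak only within 2 kb. Those in Ezh2-cKO only numbered 43 for peaks enriched 4 times or more, where those in Utx-cKO only numbered 825, and 128 with a window of 5 kb. Under the cut at 4 a weaker partner in the other list counts as absent, so these 2 counts cannot show genes without one. On the autosomes alone the shares and the width ratio lay within their intervals and the gene counts within 1.5 times. Fewer peaks enter the stricter lists; otherwise the cause of these shifts was not tested. Of the 58 families and lists, 45 had more marked members in Utx-cKO, 2 in Ezh2-cKO and 11 equal counts, and with equal numbers of peaks 33, 4 and 21. Serpins turned to 2 more in Utx-cKO with a window of 5 kb. No paired analysis was possible because the labels give no replicate numbers and each genotype has 1 library. Depth was nearly equal and sets only how weak a peak could pass, so a peak missing from a list was not detectable there, not shown to be absent.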
